A study of Homo sapiens with 2 samples.

Results

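The NeuroD1 peak list of IMR-32 cells held 56 peaks on chromosome 2 from position 14600000 to 16000000 (GRCh38), out of 6183 peaks in all, and these are described here for the 6 genes of that region: LRATD1, NBAS, DDX1, MYCNUT, MYCNOS and MYCN. A peak was given to each of these genes whose body it overlapped by at least 1 base, and otherwise it was counted as lying between genes. The region was chosen because the background implied by the deposited values was high there, so its background, reads and fold enrichment are given as descriptions, with no test. IMR-32 is an established neuroblastoma cell line. The cells were labelled wild type (WT) with no treatment given, and the series holds 1 ChIP library made with a NeuroD1 antibody and 1 input library made with no antibody, which was not analysed here. The list is used as a NeuroD1 list, as the labels and the study's own title for its peak table name it, although the written ChIP-seq protocol of the study mentions an H3K27Ac antibody. The study profiled H3K27Ac in these cells with a separate assay, CUT&Tag, which was not analysed here. With 1 ChIP library and no replicate, the values describe that library, and the intervals below cover counting error only. Those of fold enrichment cover the ChIP reads alone and hold the background fixed.

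MYCN encodes N-Myc, a transcription factor of the MYC family, and its amplification marks a high-risk group of neuroblastomas. Amplified segments around MYCN vary in length between tumours and often carry neighbouring genes as well. DDX1, which encodes an RNA helicase of the DEAD-box family, and NBAS, which encodes a protein of retrograde transport from the Golgi to the endoplasmic reticulum, are the neighbours best known to be amplified together with it. MYCNOS is transcribed from the opposite strand at the start of MYCN, MYCNUT is a long noncoding RNA upstream of MYCN, and LRATD1 encodes a protein with an LRAT domain. NeuroD1 is a bHLH transcription factor of the neuronal lineage that binds E-boxes, which are sites of the form CANNTG, together with E-protein partners.

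Peaks lay over the starts of 5 of the 6 genes, and 4 of these summits fell less than 70 bases upstream of the start. For scale, 2399 of the 35116 RefSeq promoter windows used below lay outside the region and held a summit. Holding a summit is a different measure from a peak over the start. The region was chosen on the values of these same peaks, so the count of 5 is not a result about these genes. The summit lay 20 bases upstream of the start of NBAS, 37 upstream of DDX1 and 69 upstream of LRATD1. At MYCNOS it lay 53 bases upstream of the inner of its 2 annotated starts, and at MYCN it lay 252 bases upstream, in a peak that covered the start. The outer start of MYCNOS and the start of MYCNUT lay in no peak. The 250 bases upstream of LRATD1 (chr2:14632467-14632716, plus strand), NBAS (chr2:15561335-15561584, minus strand), DDX1 (chr2:15591618-15591867, plus strand) and MYCN (chr2:15940300-15940549, plus strand) are shown because they hold these summits, or at MYCN begin 2 bases from it. They are RefSeq sequences of GRCh38.p14, written 5′ to 3′ in the direction of the gene, and capitals mark every CANNTG.
LRATD1: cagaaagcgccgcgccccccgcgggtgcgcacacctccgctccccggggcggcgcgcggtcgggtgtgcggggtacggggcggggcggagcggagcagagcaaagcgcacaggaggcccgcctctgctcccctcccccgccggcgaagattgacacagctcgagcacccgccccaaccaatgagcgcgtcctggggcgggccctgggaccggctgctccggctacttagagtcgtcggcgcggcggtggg
NBAS: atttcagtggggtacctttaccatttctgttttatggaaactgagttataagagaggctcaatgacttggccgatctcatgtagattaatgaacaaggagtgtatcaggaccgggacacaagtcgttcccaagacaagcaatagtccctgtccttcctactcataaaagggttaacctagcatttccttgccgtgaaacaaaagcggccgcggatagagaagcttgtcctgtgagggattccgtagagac
DDX1: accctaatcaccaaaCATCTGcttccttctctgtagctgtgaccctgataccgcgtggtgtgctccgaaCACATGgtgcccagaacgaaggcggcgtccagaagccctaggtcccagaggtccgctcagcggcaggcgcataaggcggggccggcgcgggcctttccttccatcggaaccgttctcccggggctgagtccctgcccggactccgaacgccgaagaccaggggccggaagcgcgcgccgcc
MYCN: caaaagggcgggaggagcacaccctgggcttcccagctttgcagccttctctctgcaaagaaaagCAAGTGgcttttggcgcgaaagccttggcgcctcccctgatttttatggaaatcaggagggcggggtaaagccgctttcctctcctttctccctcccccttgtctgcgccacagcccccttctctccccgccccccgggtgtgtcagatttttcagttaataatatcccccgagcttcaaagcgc

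NeuroD1 is best known for binding the E-boxes CAGATG, read on the other strand as CATCTG, and CAGCTG, which reads the same on both strands. In windows from 250 bases upstream to 50 bases from the start onward, CAGATG was found on either strand at DDX1, at the inner start of MYCNOS and at MYCN, once in each, and CAGCTG at none of the 7 starts. At MYCNOS the CAGATG (chr2:15941725-15941730) was centred 10 bases from the summit. At DDX1 it lay at the far end of the window, 196 bases from the summit, with a CACATG 142 bases from it. At MYCN the CATCTG (chr2:15940563-15940568) lay just downstream of the start and 268 bases from the summit, and a CAAGTG lay 70 bases from the summit. The MYCNOS and MYCN sites are shown with 12 bases on each side (chr2:15941713-15941742, minus strand, and chr2:15940551-15940580, plus strand), with the E-box in capitals, since these are the CAGATG sites of the 2 genes that share peaks.
MYCNOS: ggagggggcatgCAGATGcagggggtggtg
MYCN: ggctgtgacagtCATCTGtctggacgcgct

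No CANNTG of any kind lay in the windows of LRATD1 or NBAS, although both had a peak with its summit there. The LRATD1 window was 75.3% G and C with 39 CG pairs, the NBAS window 49.7% with 13, and the DDX1 window 67.0% with 31. Over all 35116 RefSeq promoter windows of the same length, 14.7% held CAGATG on either strand, 17.9% held CAGCTG and 68.7% held any CANNTG. Among the 2399 windows outside the region that held a peak summit, the shares were 8.96%, 19.1% and 57.6%. A window without the letters was thus common both with and without a summit.

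Across the region the 56 peaks amounted to 0.906% of the list, or 4.0 per 100 kb (95% exact Poisson interval 3.02 to 5.19), whereas the gene bodies of the whole annotation held 0.262 peaks per 100 kb. Of the 56 peaks, 35 overlapped at least 1 of the 6 genes (62.5%, 95% exact Clopper-Pearson interval 48.5% to 75.1%) and 21 lay between these genes. Over the whole list 71.2% of peaks overlapped a RefSeq gene of any kind, a wider set than the 6 genes, so the 2 shares are not like for like. All the genes but MYCNUT held at least 2 peaks, so 5 of the 6 had a peak, against 7.15% of all 59679 RefSeq genes with 1 or more peaks and 1.18% with 2 or more. The region was chosen on the values of these same peaks, so this contrast is not a result about the genes.

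The ChIP reads at each summit and the local background against which the peak was called were solved from the deposited fold enrichment and −log10 p. A fold enrichment here is what the ChIP pileup at a summit comes to relative to that background, once 1 is added to both. The median background of the 56 peaks was 53.5 reads (range 33.4 to 98), against 1.28 at the 6071 peaks of ordinary background. None of the latter was above 7.0. The nearest peak before the region lay 518 kb below its first peak, with a background of 1.04 and a fold enrichment of 12.5. The nearest after it lay 1556 kb beyond its last peak, with a background of 1.36 and a fold enrichment of 21.6. No peak was called in those 2 intervals, so where in them the background falls is not given by the list.

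Within the region the background could be divided into 2 levels, with the step between them inside NBAS. The 25 peaks of the first stretch, from LRATD1 to the middle of NBAS (14632391 to 15060581), had backgrounds from 66.4 to 98 with a median of 83.1. The 31 peaks of the second stretch, from the rest of NBAS past MYCN (15111808 to 15982953), had backgrounds from 33.4 to 60 with a median of 46.0. The levels did not overlap, and the median of the first was 1.81 times that of the second. The split was placed after the values were seen, in the 51.2 kb without a peak that separates the stretches, which lies from 829 to 880 kb upstream of the MYCN start. Only points where every earlier background exceeds every later one were considered, and the largest difference in medians was taken. The lack of overlap was thus a condition of the split, and the ratio is a description. MYCN itself therefore lay at the lower level. Of the 56 other chromosome 2 peaks with a background of at least 30, only 2 exceeded 66.4, and the highest was 67.0. Copy number was not measured here, and its part in these levels was not tested.

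**Figure D1:**
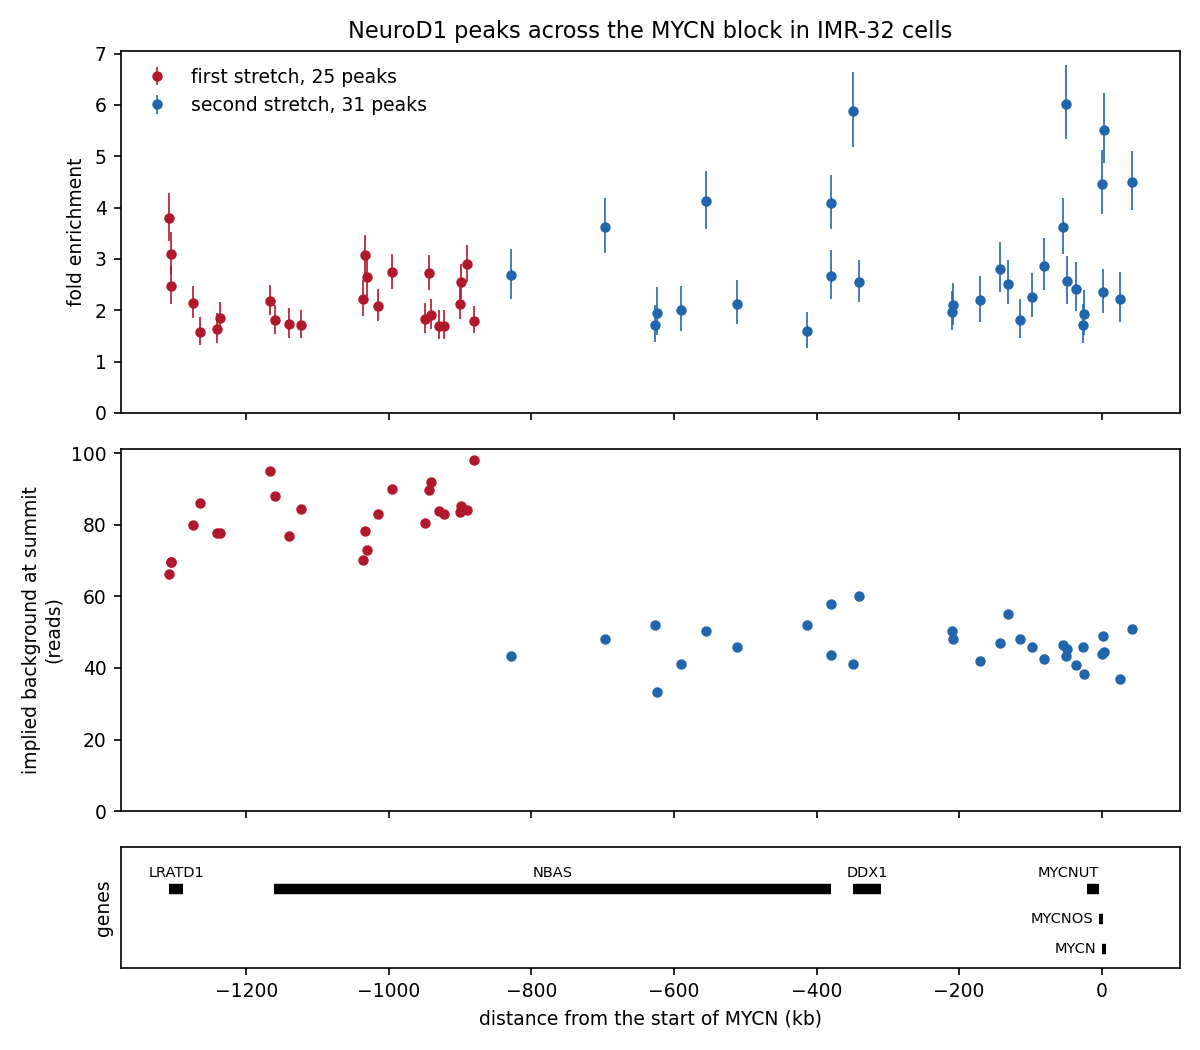
Fold enrichment (top, with 95% exact Poisson intervals for the ChIP reads at fixed background) and implied background in reads (middle) of each of the 56 peaks, by the distance of the summit from the start of MYCN in kb, above the bodies of the 6 genes (bottom). The background of the first stretch (red) lies at 66.4 or more and that of the second (blue) at 60 or less, while the 7 fold enrichments of at least 4 all lie in the second.

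LRATD1 (chr2:14632717-14651916, plus strand) held 3 peaks, which were crowded at its start. The peak over the start, from 14632391 to 14632975, was covered at its summit by 260 ChIP reads (229 to 294 by the exact Poisson interval at 95%), against a background of 66.4. Its fold enrichment was 3.79 (3.35 to 4.28 at that background) and its −log10 q was 62.9. No peak of the first stretch had a higher fold enrichment. The peak from 14634098 to 14635246 had 222 reads over a background of 69.6 and a fold enrichment of 3.10. It was 1149 bp wide and ended 111 bases before the third peak, which ran to 14635771 and had 177 reads and a fold enrichment of 2.47 (2.13 to 2.87). The intervals of the first and the third did not overlap, but they hold the background fixed and leave out its own counting error. The fold enrichment fell from the start into the gene, and the difference was not tested. The rest of the gene had no peak.

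NBAS (chr2:14778909-15561334, minus strand), the longest of the 6 genes with 782 kb, held 27 peaks, more than any other gene of the annotation. The next was RBFOX3 with 9. Per length NBAS held 3.45 peaks per 100 kb (2.27 to 5.02), close to the 4.0 of the region as a whole. The 365 RefSeq genes of at least 500 kb held a median of 0 peaks, and NBAS apart none of them held more than 9. The annotated body takes in 9 predicted transcripts, and exons and introns were not used here.

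In the 282 kb from its far end to the last peak of the first stretch there were 17 peaks, or 6.04 per 100 kb (3.52 to 9.66). In the 450 kb from the first peak of the second stretch to the NBAS start there were 10, or 2.22 per 100 kb (1.07 to 4.09). These intervals overlap, and the split was placed after the values were seen. In both parts the end nearer the split was set by a called peak, and a lower fold enrichment suffices for a call where the background is higher. The fold enrichments of the 2 sets overlapped. Their medians were 2.09 (range 1.7 to 3.07) for the 17 and 2.39 (range 1.59 to 4.12) for the 10.

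The peak at the start of NBAS, from 15560935 to 15561547, had 245 reads (215 to 278) over a background of 58.0, with a fold enrichment of 4.09 (3.59 to 4.63), and its −log10 q of 65.4 was the highest of the gene. A smaller peak began 54 bases further into the gene, with 120 reads and a fold enrichment of 2.66 (2.21 to 3.17). A peak deep in the gene was as strong as the start. It ran from 15385191 to 15385581 and had 215 reads (187 to 246), a background of 50.4 and a fold enrichment of 4.12 (3.59 to 4.71), an interval that overlaps that of the start. Another, from 15243123 to 15243513, had a fold enrichment of 3.62 (3.11 to 4.19). In the part of NBAS in the first stretch the highest fold enrichment was 3.07 (2.70 to 3.47), at 14907003 to 14907361, with 247 reads over a background of 78.3. At the other end of the scale, 12 of the 27 peaks were below a fold enrichment of 2 and 4 had a −log10 q under 5. The peak from 15527454 to 15527621 had a −log10 q of 1.38, the lowest of all 6183 peaks, at a fold enrichment of 1.59.

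Among the start peaks of the region, that of DDX1 (chr2:15591868-15631101, plus strand) had the highest fold enrichment and −log10 q. It ran from 15591426 to 15592438, a width of 1013 bp, with 251 reads (221 to 284) over a background of 41.0 and a fold enrichment of 5.88 (5.18 to 6.65). Its −log10 q of 98.6 ranked 23 of 6183. The interval of the fold enrichment lay above those of the start peaks of NBAS, 30.5 kb away, of LRATD1 and of MYCN, at which the fold enrichment was 4.46 (3.87 to 5.12). These intervals hold each background fixed, so the order was not tested. The starts of NBAS and LRATD1 had similar reads, 245 and 260, over higher backgrounds of 58.0 and 66.4. The peak also overlapped LOC124905975, a long noncoding RNA gene whose body ends before that of DDX1 begins. The other DDX1 peak, from 15600099 to 15600391 inside the gene, had 158 reads over a background of 60 and a fold enrichment of 2.55 (2.17 to 2.98). After it no peak was called for 130 kb.

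MYCNUT (chr2:15920399-15936018, plus strand) was the 1 gene of the 6 without a peak, and the number stayed at 0 with 3 kb added on each side. The nearest peak before it ended 5152 bases from its start, and the nearest after it began 3611 bases past its end, over the start of MYCN. At the median background of the second stretch, 78 reads and a fold enrichment of 1.65 would have reached the lowest −log10 p of the list (4.56), so weaker enrichment in MYCNUT would not have been called. For a count of 0 in its 15.6 kb, the exact Poisson interval allowed up to 23.6 peaks per 100 kb, which is above the density of NBAS.

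MYCNOS (chr2:15936265-15942433, minus strand) and MYCN (chr2:15940550-15947004, plus strand) overlap, and both MYCNOS peaks were also MYCN peaks. The stronger covered the start of MYCN and also lay in the body of MYCNOS, so the reads of the 2 genes cannot be told apart there. The weaker, over the inner start of MYCNOS, had the lowest fold enrichment of the start peaks, 2.35 (1.95 to 2.81). The third MYCN peak, inside the gene and past MYCNOS, had a fold enrichment of 5.51 (4.86 to 6.23), above the interval of the inner MYCNOS peak. Its interval overlapped that of the MYCN start peak and that of the DDX1 start. Per length MYCN held 46.5 peaks per 100 kb (9.58 to 136) and MYCNOS 32.4 (3.93 to 117), intervals that both overlap that of LRATD1 at 15.6 (3.22 to 45.7).

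Of the 21 peaks between genes, 14 lay between DDX1 and MYCNUT, 5 between LRATD1 and NBAS and 2 beyond MYCN. The highest fold enrichment and −log10 q of the whole region were in the first of these spaces, at no annotated gene. That peak ran from 15889588 to 15890458, with its summit 50.6 kb upstream of the MYCN start. It had 272 reads (241 to 306), the highest number in the list, shared with another chromosome 2 peak, over a background of 43.4. Its fold enrichment was 6.02 (5.33 to 6.78) and its −log10 q of 109 ranked 19 of 6183. A peak from 15886177 to 15886608 with a fold enrichment of 3.62 (3.10 to 4.19) lay 2979 bases before it, and one with 2.56 (2.13 to 3.06) began 701 bases after it. The interval of the strong peak overlapped that of the third MYCN peak and that of the DDX1 start, and the order of the 3 was not tested. Around them the DDX1 to MYCNUT space was weaker, with a median fold enrichment of 2.34 over its 14 peaks. A further strong peak between genes lay beyond MYCN, from 15982281 to 15982953, and was the last of the region. Its summit was 35.4 kb past the end of MYCN, with 238 reads (209 to 270) and a fold enrichment of 4.50 (3.95 to 5.11).

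The 5 peaks between LRATD1 and NBAS had the lowest median fold enrichment of these groups, 1.84 (range 1.58 to 2.18). They were not the lowest in reads, with a median of 147 over a median background of 80.0. The DDX1 to MYCNUT space had a median of 106 reads over a median background of 45.9. The lowest fold enrichment of the entire list was among the 5, 1.58 at 14675647 to 14675797 (95% interval 1.33 to 1.86). There 139 reads stood over a background of 86.0. A peak from 15903710 to 15903859 overlapped LOC124906147, annotated as a snoRNA, with a fold enrichment of 2.42. Of the 9 other annotated genes in the region, this and LOC124905975 were the 2 with a peak, and LINC01804 between DDX1 and MYCNUT had none.

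**Figure D2:**
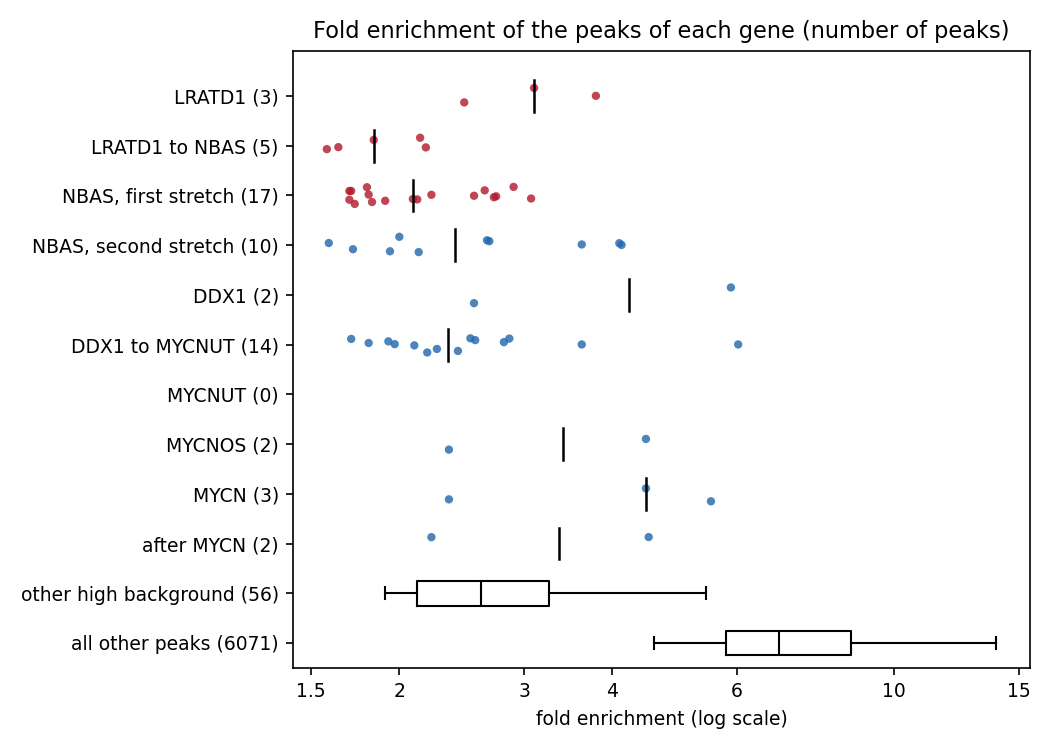
Fold enrichment (log scale) of every peak of the 6 genes and of the spaces between them, in order along the chromosome, with the number of peaks in brackets, red for the first stretch, blue for the second, and a black line at each median; peaks shared by MYCNOS and MYCN are drawn in both. Boxes give the median, quartiles and 5th to 95th percentiles of the other chromosome 2 peaks of high background and of all other peaks, whose median of 6.87 lies above every peak of the region.

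Ranked by reads and by fold enrichment, these peaks stood at opposite ends of the list. By ChIP reads at the summit, 12 of the first 20 and 47 of the first 100 of all 6183 peaks were from the region, and by fold enrichment 0 of the first 100 were. By −log10 q, which rises with both, 8 of the first 100 were. The median was 150 reads at a median fold enrichment of 2.24, against 16 reads and a median of 6.87 at the peaks of ordinary background. Outside the peaks of high background the smallest fold enrichment was 3.08. In the region 45 of the 56 peaks fell short of it, and of the 11 that reached it, 9 were in the second stretch.

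The 5 peaks of the region that covered a RefSeq start had a median of 245 reads and a median fold enrichment of 4.09 (range 2.35 to 5.88). The other 51 had medians of 147 reads and 2.19 (range 1.58 to 6.02). At the 1524 start peaks of ordinary background the medians were 17 reads and 7.23. The DDX1 start was above 23.8% of these in fold enrichment, the MYCN start above 2.89%, the NBAS start above 1.31% and the LRATD1 start above 0.722%, and the inner MYCNOS start was below all of them. In reads, none of the 1524 exceeded LRATD1, NBAS or DDX1, while 1 exceeded MYCN.

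The fold enrichment needed for a call depended on the background. At the lowest background of the list, 1.04, at least 8 reads and a fold enrichment of 4.34 were needed to reach the lowest −log10 p of the list. At the median of the second stretch 1.65 sufficed, and at that of the first stretch, where 125 reads were needed, 1.47. Of the 56 peaks, 5 had a fold enrichment of at least 4.34. They were the DDX1 start, the peak 50.6 kb upstream of MYCN, the first and the third MYCN peak, and the last peak beyond MYCN. None of the NBAS or LRATD1 peaks reached it. This limit is read from the list itself and was not stated by the authors.

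**Figure D3:**
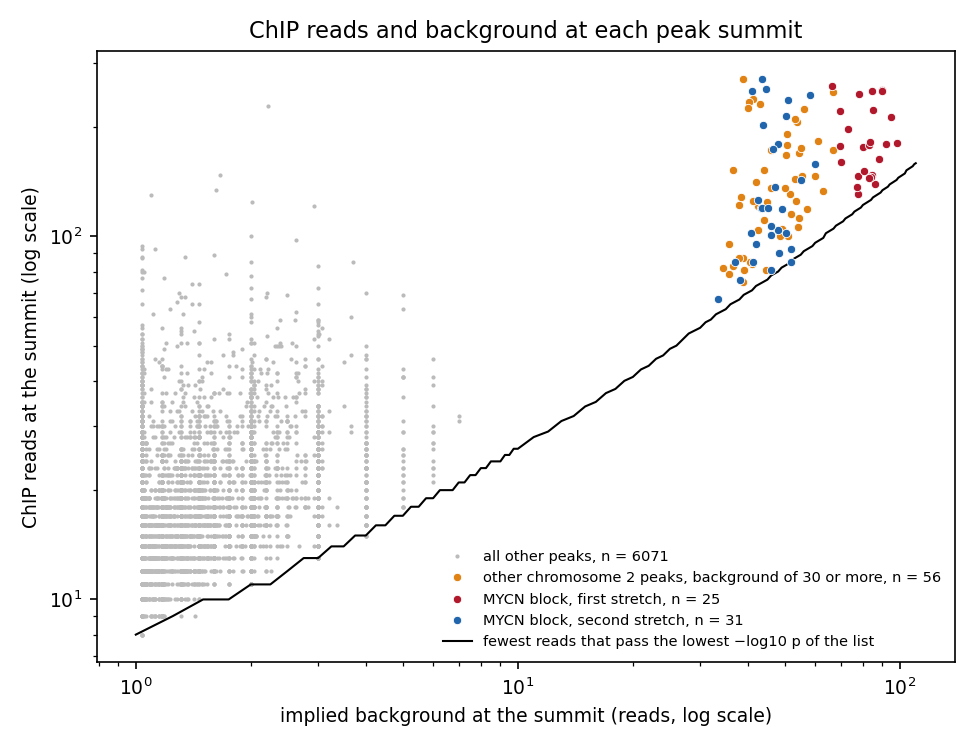
ChIP reads at the summit against the implied background, both in reads on log scales, for every peak of the list. The black line gives the fewest reads that reach the lowest −log10 p in the list (4.56); the 56 peaks of the region (red and blue) lie at backgrounds of 33.4 or more, next to the other chromosome 2 peaks of high background (orange), and all other peaks (grey) lie at 7.0 or less.

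The 5 genes elsewhere with the most peaks at a background of at least 30 all lay on chromosome 2, which was where such peaks were found. They were LINC01798 and LINC01828 with 7 each, ALK with 6, LOC105374785 with 4 and ANTXR1 with 3. ALK encodes a receptor tyrosine kinase that is a known neuroblastoma oncogene. In its 729 kb, a length close to that of NBAS, ALK held 0.823 such peaks per 100 kb, with backgrounds from 50.5 to 67.0 and fold enrichments from 2.15 to 3.87. The backgrounds of ALK thus ran from within the range of the second stretch to the lower end of the first. In LINC01828 the fold enrichment reached 6.73 over backgrounds from 38.3 to 50. Over all 56 such peaks outside the region, the median fold enrichment was 2.60 (range 1.76 to 6.73) and the median background 46.5. These were close to those of the second stretch, at 2.52 and 46.0.

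A chosen list of 24 other genes of the short arm of chromosome 2 held no peak of high background. The list leaves out ALK, LINC01798, LINC01828, LOC105374785 and ANTXR1, and it includes LINC01804, which lies inside the region. It therefore does not describe the short arm as a whole. Of these 24, 8 held a peak, whereas 7.15% of all 59679 RefSeq genes did. The list was chosen, so this contrast was not tested. The 8 genes were VSNL1, LPIN1, GREB1, E2F6, PDIA6, ODC1, RRM2 and ID2, and their backgrounds were at most 2.0. The best fold enrichment of each, among peaks that overlap its body, ranged from 5.56 at VSNL1, which encodes a neuronal calcium sensor, to 37.2 at E2F6, which encodes a repressor of the E2F family. The nearest peak after the region (17538821 to 17539181), with a fold enrichment of 21.6, lay just outside VSNL1, whose body begins at 17539972. On its other side RAD51AP2, also of the 24, ends at 17537859, so this peak was counted for neither gene. ODC1, the rate-limiting enzyme of polyamine synthesis, had 28 reads and a fold enrichment of 9.48, and ID2, a dominant-negative partner of bHLH factors, had 27 reads and 12.3. Neither LINC00276, on one side of the region, nor GACAT3 and CYRIA, on the other, held a peak, so the list gives no background there.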

How the data were processed

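NeuroD1 ChIP-seq of IMR-32 cells gave 1 peak list. The processing notes of the labels name hg38, BWA 0.7.17 and MACS2 2.2.7, whereas the deposited peak names carry macs3, and the control used is not given in the sources used here. For each summit the authors deposited a fold enrichment (a ratio), −log10 p and −log10 q values, and a score, which is 10 times the −log10 q cut to a whole number. The ChIP reads and the background were solved from fold enrichment and −log10 p with the Poisson formula of MACS. The weight of 1 ChIP read, 0.980, and the lowest background, 1.04, came from the same values, and the −log10 p of every peak was matched within a share of 1.1e-05. The solver was tested on simulated data. Depth is unknown, so no total is given. Genes and promoters were RefSeq of GRCh38.p14. All 6 genes matched by symbol in the gene table and the promoter table. Intervals are 95% exact Poisson or Clopper-Pearson intervals and cover counting error only. Those of fold enrichment leave out the error of the background.

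The genes and lists were chosen with earlier results of these data known. Named genes were the 6 genes, 24 neighbours, the 5 genes outside with the most peaks at a background of at least 30, and other genes of the region with a peak. No genome was used, so letters under peaks outside promoters were not searched. Alternatives were limits on −log10 q and fold enrichment, other rules for overlap, other windows and a weight of 1 for a read. Scripts ran in Python 3.11.15 with scipy 1.17.1, pandas 2.3.3, matplotlib 3.10.9 and numpy 2.4.6.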

Additional observations from a re-analysis of the deposited data

How the results depend on the processing

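The number of peaks in the region fell from 56 to 24 when a fold enrichment of 2.5 or more was required and to 33 with a −log10 q of at least 10, as fewer peaks pass by construction, and it was 47 with a −log10 q of at least 5. When the summit alone had to lie in the gene, DDX1 had 1 peak, since the summit of its start peak lies upstream of the gene. For the same reason LRATD1 had 2, MYCN 2 and NBAS 26. With each peak given to 1 gene MYCNOS had 1. The median background was 45.9 in the window of 0.5 Mb on each side of MYCN, which leaves out the first stretch. In 41 of 46 comparisons with an alternative, counts stayed within 1.5 times and shares and medians within their intervals. Those of LRATD1, MYCN and NBAS were among the 41. The alternatives for the 2 stretches were chosen after seeing the data, and gave medians from 82.9 to 83.8 and from 44.6 to 47.0.

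The share of peaks with an E-box was not run, since no genome of the build was given. No paired analysis was possible because the ChIP was done once. No peak has a replicate check, and 9 of the 56 (16.1%) had a −log10 q under 5, against 21.5% of the whole list. The intervals of fold enrichment hold the background fixed, and no order of fold enrichments was tested, whether or not intervals overlap.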
